A study of Mus musculus with 10 samples.

Results

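The genes of MHC class II antigen presentation were followed in livers after deletion of the genes for histone H3.3 in hepatocytes. The set holds 10 genes (H2-Aa, H2-Ab1, H2-Eb1, Cd74, Ciita, H2-DMa, H2-DMb1, H2-DMb2, H2-Oa and H2-Ob) of the 55421 in the count table, chosen by gene name. All 10 had the 10 or more counts over the livers that were needed for testing. Poly(A)-selected RNA of the whole liver was sequenced from 10 male mice. The H3.3 KO group held 4 H3f3a fl/fl H3f3b fl/fl mice given AAV8 Tbg-Cre, a virus that carries Cre recombinase under the hepatocyte promoter Tbg, so that both genes for H3.3 were floxed and Cre was meant for hepatocytes alone. The first controls were 3 wildtype mice given the same AAV8 Tbg-Cre (WT Cre), and the second were 3 H3f3a fl/fl H3f3b fl/fl mice given AAV8 Tbg-MCS, which carries no Cre (MCS). The paper states C57BL/6 as the strain of its mice with floxed Hira, but no strain for these floxed mice. All were injected at 6 months of age and were studied 3 weeks later, so every liver had received AAV8. The comparison asked how the livers differed in class II transcripts after H3.3 loss, against controls that shared the Cre and controls that shared the floxed alleles.

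MHC class II molecules show peptides from proteins taken up by the cell to CD4 T cells. Each molecule is a pair of an alpha and a beta chain, which in the mouse are H2-Aa with H2-Ab1 for I-A, while H2-Eb1 is the beta chain of I-E. Cd74 encodes the invariant chain, which fills the peptide groove until proteases trim it in the endosome. H2-DM, built from H2-DMa with H2-DMb1 or H2-DMb2, exchanges the last invariant chain fragment for a peptide, and H2-DO, built from H2-Oa and H2-Ob, inhibits H2-DM. Ciita is the coactivator that switches the group on, by joining factors bound to the X and Y boxes of the promoters. In a healthy liver, class II is known from dendritic cells, B cells and macrophages, among other cells, rather than from hepatocytes. H2-DO is known above all from B cells and some dendritic cells.

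In the mm10 annotation (GENCODE M21) 8 of the 10 genes lie on chromosome 17 within the class II interval. In order they are H2-Oa at chr17:34092340-34095234 (+ strand, 3 merged exons), H2-DMa at chr17:34119541-34139101 (+ strand, 4 merged exons), H2-DMb2 at chr17:34143307-34151555 (+ strand, 8 merged exons), H2-DMb1 at chr17:34153072-34160230 (+ strand, 7 merged exons), H2-Ob at chr17:34238903-34254414 (+ strand, 10 merged exons), H2-Ab1 at chr17:34257689-34269419 (+ strand, 6 merged exons), H2-Aa at chr17:34282744-34287823 (- strand, 5 merged exons) and H2-Eb1 at chr17:34305867-34316674 (+ strand, 6 merged exons). Ciita lies at chr16:10480059-10528418 (+ strand, 24 merged exons). All 10 genes are protein-coding. H2-DMb1 and H2-DMb2 are close copies, and 22.7% of the 50-base stretches in H2-DMb1 transcripts also occur in another gene, all of those in H2-DMb2, so reads could be split between them. Exons of H2-DMa overlap Brd2, those of H2-Oa overlap BC051537 and those of Ciita overlap Dexi on the opposite strand, and the shared stretches made up 8.43%, 15.5% and 1.46% of their transcripts. The strand setting of the counting was not given in the sources used here, so these 3 genes could hold reads of their partners. H2-Ab1, H2-Eb1, Cd74 and H2-Ob shared no 50-base stretch with another gene.

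The promoters are shown for letters of the X and Y boxes, which some but not all members carried, whether or not the gene differed in KO livers. RefSeq windows of GRCm38.p6, from 250 bases before to 50 bases after the start, were at hand for 7 of the 10 members, while Ciita, Cd74 and H2-Ab1 are named only. The letters searched on both strands were TGATTGG, which holds the inverted CCAAT of the Y box, and GCAAC from the X box, chosen after the windows had been read. TGATTGG occurred in 6 of these 7 members and in 7.82% of all 32851 windows. GCAAC by itself is common, in 5 of the 8 windows of members and in 35.2% of all windows. GCAAC followed after 15 to 45 bases by TGATTGG occurred in 4 of the 7 and in 0.298% of all windows. The stretches below run 5′ to 3′ on the gene's strand with these letters in capitals, at chr17:34287857-34287923 (- strand), chr17:34305756-34305822 (+ strand), chr17:34238796-34238862 (+ strand), chr17:34092284-34092350 (+ strand) and chr17:34145107-34145173 (+ strand).
H2-Aa: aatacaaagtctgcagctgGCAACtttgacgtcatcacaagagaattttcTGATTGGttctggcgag
H2-Eb1: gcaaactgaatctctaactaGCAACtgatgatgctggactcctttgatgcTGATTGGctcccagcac
H2-Ob: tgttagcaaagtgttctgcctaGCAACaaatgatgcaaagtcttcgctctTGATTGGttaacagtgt
H2-Oa: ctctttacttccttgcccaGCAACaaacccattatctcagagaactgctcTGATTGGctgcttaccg
H2-DMb2: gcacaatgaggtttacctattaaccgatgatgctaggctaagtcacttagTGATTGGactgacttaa
Between the capitals lay 26 bases in H2-Aa, 25 in H2-Eb1, 23 in H2-Ob and 26 in H2-Oa. H2-DMb2 held TGATTGG alone, as did H2-DMb1. Neither of the 2 windows of H2-DMa held TGATTGG.

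The deposited counts gave 14998426 to 26096141 reads in genes per liver, and the lowest total was that of KO 1. H3f3a lay between 16 and 19 CPM (read counts scaled to library size) in KO livers against 59.9 to 63.7 in controls, and H3f3b between 39.8 and 56.7 against 136 to 204. The genotype field of the labels names HIRA for the floxed mice, whereas their titles name H3f3a and H3f3b, and Hira did not differ at this threshold (log2 fold change -0.14 ± 0.14 SE, adjusted p = 0.48). The control columns carry numbers only and were matched to WT Cre and MCS through the library numbers, so values for one kind of control rest on that match. Albumin took 83709.7 to 118201 CPM in controls and 61393 to 75941 in KO livers. MCS 3 stood apart from the other controls in sums of monocyte and neutrophil genes and in ratios to B cell genes. Without MCS 3, 9 members rose with a median log2 fold change of 2.08, and without KO 1, the KO liver nearest to the controls, 9 rose with a median of 2.21. The labels number the samples of a group without naming the animal, so p-values measure the spread between these samples.

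Class II transcripts were higher in H3.3 KO livers. Against all 6 controls, 9 of the 10 genes rose (edgeR quasi-likelihood test, Benjamini-Hochberg adjusted p under 0.05), each by more than 1 on the log2 scale, and H2-Oa did not pass the test. Over all 22449 genes tested 19.7% rose, and 12.9% rose by more than 1. The median log2 fold change of the 10 genes was 1.99, beside -0.0030 for all genes. In 8 of the 10, on CPM, every KO liver lay above every control, which held for 12.5% of all genes tested. KO 1 was the lowest KO liver in 9 of the 10 genes and KO 4 the highest in 8. In bulk liver RNA, more cells of a type and more RNA per cell cannot be told apart, and this holds for each value that follows.

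**Figure D1:**
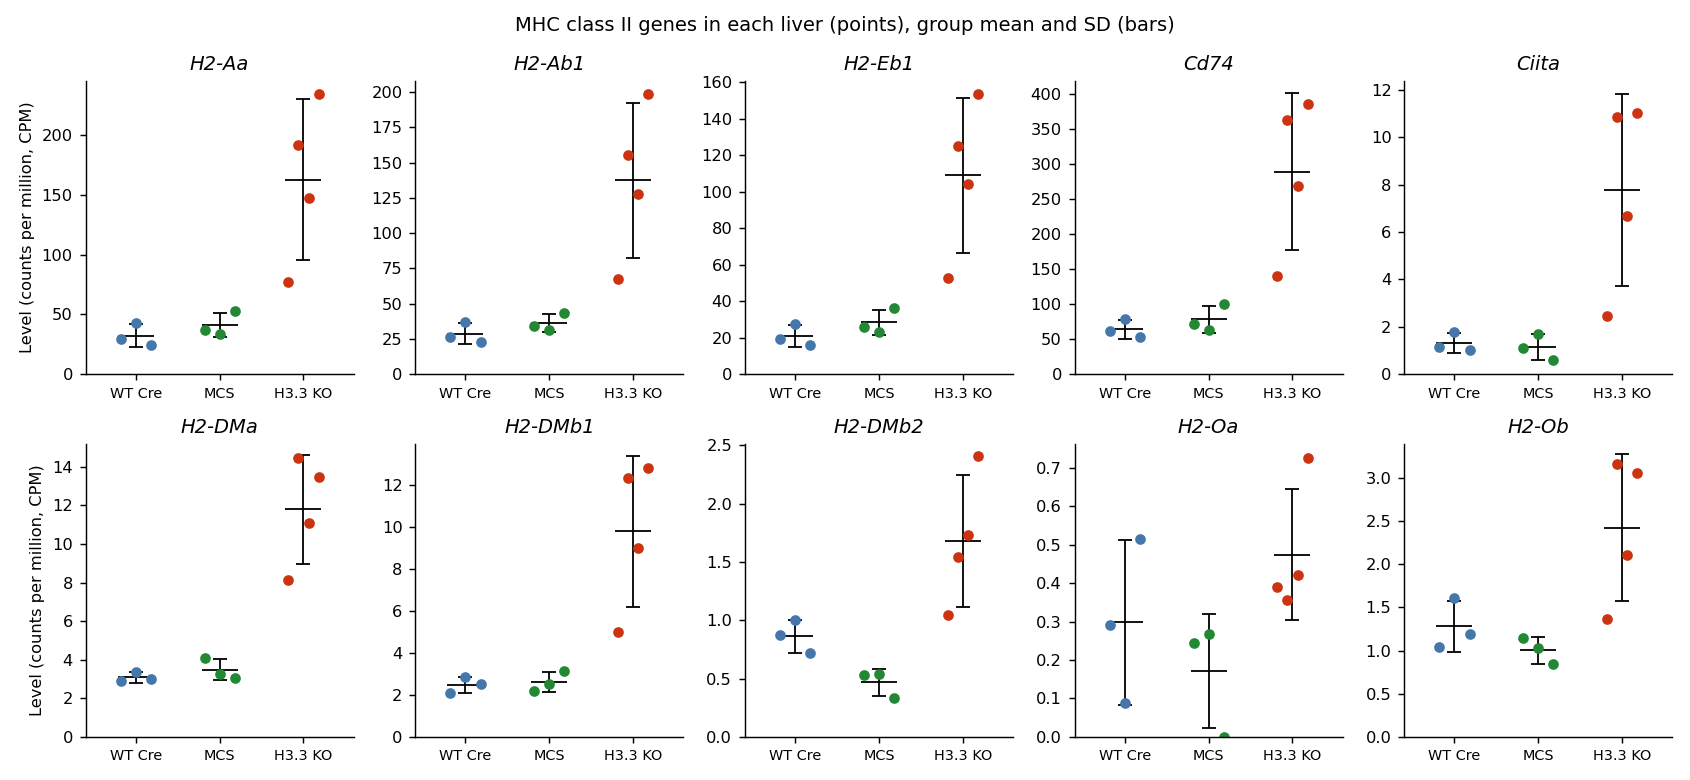
Level of each class II gene in CPM (vertical axes, from 0) in every liver, by group, with the group mean and SD. KO livers lie above all controls for 8 genes, and overlap them for H2-Oa and H2-Ob.

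The chains that bind peptide rose together. H2-Aa, the I-A alpha chain, stood at 29.2, 42.8 and 24.8 CPM in the 3 WT Cre controls, 36.8, 33.5 and 52.6 in the 3 MCS controls and 77.4, 192, 147 and 235 in the 4 H3.3 KO livers. KO livers all lay above the controls, with KO 1 closest to them and MCS 3 the highest control. The means were 163 ± 67.3 CPM (SD, n = 4) and 36.6 ± 9.98 CPM (SD, n = 6), a log2 fold change of 2.16 ± 0.29 (SE, adjusted p = 0.00029), or 4.46-fold. H2-Ab1, its beta partner, stood at 26.7, 37.1 and 22.5 CPM in the 3 WT Cre controls, 33.8, 31.1 and 43.1 in the 3 MCS controls and 67.6, 156, 128 and 199 in the 4 H3.3 KO livers. Its order of livers was that of H2-Aa and the groups did not overlap, with a log2 fold change of 2.09 ± 0.27 (SE, adjusted p = 0.00018). H2-Eb1, the I-E beta chain, stood at 19, 27.7 and 16.1 CPM in the 3 WT Cre controls, 25.8, 23.1 and 36.2 in the 3 MCS controls and 53, 125, 104 and 154 in the 4 H3.3 KO livers. It too separated the groups, with a log2 fold change of 2.15 ± 0.29 (SE, adjusted p = 0.00030).

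The partner of H2-Eb1 was not seen. The I-E alpha gene, listed as H2-Ea-ps, had 0 counts in all 10 livers, which allows up to 0.115 to 0.195 CPM per liver (3 counts, counting error only). C57BL/6 mice are known to lack I-E through a defect of this gene, but the paper does not state the strain of the floxed mice used here. H2-Eb2, a beta chain gene beside H2-Eb1, rose from low levels (log2 fold change 2.56 ± 0.52 SE, adjusted p = 0.0021), at 0.130 to 1.11 CPM in KO livers and 0.0434 to 0.208 in controls. Its groups overlapped, since KO 1 lay within the controls. H2-Ab2 was not tested.

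Cd74, the invariant chain, was the most abundant member and lies at chr18:60803848-60812652 (+ strand, 9 merged exons). It stood at 61.1, 79.1 and 52.3 CPM in the 3 WT Cre controls, 71.2, 63.2 and 100.4 in the 3 MCS controls and 140.2, 363, 268 and 386 in the 4 H3.3 KO livers. No KO liver overlapped a control, and the means were 289 ± 112 CPM (SD, n = 4) and 71.2 ± 17 CPM (SD, n = 6). Its log2 fold change of 2.02 ± 0.26 (SE, adjusted p = 0.00017), or 4.06-fold, lay close to those of the chains it escorts. KO 1 had 1.97 times the control mean, whereas the other 3 KO livers averaged 4.76 times.

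Ciita, the coactivator of the group, had the highest estimated fold change among the members on the counts, but not on FPKM. It stood at 1.13, 1.78 and 1.03 CPM in the 3 WT Cre controls, 1.10, 1.70 and 0.615 in the 3 MCS controls and 2.48, 10.9, 6.70 and 11 in the 4 H3.3 KO livers. All KO livers lay above all controls, KO 1 by the smallest margin, and on this scale MCS 3 was the lowest control although it was the highest for the 3 chains and Cd74. The means were 7.77 ± 4.05 CPM (SD, n = 4) and 1.22 ± 0.439 CPM (SD, n = 6), and the log2 fold change was 2.66 ± 0.38 (SE, adjusted p = 0.00030), or 6.33-fold. Levels spread over 4.45-fold between the lowest and highest KO liver, against 2.75-fold for Cd74. Counts of Ciita were 27, 41, 26, 27, 38 and 11 in the 6 controls, so its control level rests on few reads. On the authors' FPKM values (fragments scaled to transcript length and library depth) Ciita had 0.182, 0.441 and 0.194 in WT Cre, 0.237, 0.348 and 0.254 in MCS and 0.426, 1.79, 1.07 and 1.75 in KO livers, where KO 1 lay below WT Cre 2. Its log2 fold change there was 1.73 on the log2(FPKM + 0.1) scale, below those of the 3 chains, Cd74, H2-DMa and H2-DMb1. It was 0.78 on the log2(FPKM + 1) scale, and Ciita passed the test on both (limma). The added 0.1 or 1 shrinks the estimate of a gene at this FPKM level more than those of members at higher levels. The lower rank of Ciita there thus rests in part on the added value.

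The editor H2-DM rose as well. H2-DMa, its alpha chain, stood at 2.88, 3.38 and 2.98 CPM in the 3 WT Cre controls, 4.11, 3.26 and 3.07 in the 3 MCS controls and 8.14, 14.5, 11.1 and 13.5 in the 4 H3.3 KO livers. The groups lay well apart and the KO livers differed among themselves by 1.78-fold, the smallest such spread of the 10, with a log2 fold change of 1.85 ± 0.17 (SE, adjusted p = 6.54e-06). Brd2, which overlaps it, was far more abundant (100.4 CPM on average) and had a log2 fold change of -0.22 ± 0.10 (SE, adjusted p = 0.11). H2-DMb1, the main beta chain by level, stood at 2.08, 2.86 and 2.5 CPM in the 3 WT Cre controls, 2.20, 2.5 and 3.13 in the 3 MCS controls and 5.02, 12.3, 9.02 and 12.8 in the 4 H3.3 KO livers. It did not overlap between groups and had a log2 fold change of 1.95 ± 0.23 (SE, adjusted p = 4.07e-05). H2-DMb2, the second beta chain, stood at 0.875, 0.998 and 0.715 CPM in the 3 WT Cre controls, 0.529, 0.536 and 0.335 in the 3 MCS controls and 1.04, 1.54, 1.73 and 2.41 in the 4 H3.3 KO livers. KO 1 lay just above WT Cre 2, and all WT Cre controls lay above all MCS controls. Its log2 fold change was 1.33 ± 0.30 (SE, adjusted p = 0.0038).

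The inhibitor H2-DO moved least by its estimates. H2-Ob, the beta chain, stood at 1.04, 1.60 and 1.19 CPM in the 3 WT Cre controls, 1.14, 1.03 and 0.838 in the 3 MCS controls and 1.37, 3.16, 2.11 and 3.06 in the 4 H3.3 KO livers. KO 1 lay below WT Cre 2, and the other KO livers lay above all controls. The log2 fold change was 1.09 ± 0.25 (SE, adjusted p = 0.0045), or 2.14-fold. On the FPKM values the call was lost, at 0.25 with an adjusted p of 0.33 on the log2(FPKM + 1) scale (limma), with 2.22, 1.00 and 1.28 FPKM in WT Cre, 1.10, 1.13 and 0.817 in MCS and 0.967, 2.29, 1.40 and 2.12 in KO livers. H2-Oa, the alpha chain, had 7, 2 and 13 counts in WT Cre, 6, 6 and 0 in MCS and 6, 9, 10 and 19 in KO livers. The count of 0 in MCS 3 allows up to 0.168 CPM. KO livers ran from 0.356 to 0.727 CPM and controls up to 0.516 CPM, so the groups overlapped. Its log2 fold change of 0.97 ± 0.52 (SE, adjusted p = 0.17) did not pass the test at this depth.

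The rise was found against each kind of control. Against WT Cre, which shared the virus and Cre, 9 of 10 genes rose, beside 15.3% of all genes, with a median log2 fold change of 2.08. Against MCS, which shared the floxed alleles, 9 of 10 rose, beside 17.3%, with a median of 1.90. Both comparisons use the same 4 KO livers, and H2-Oa was the gene that did not pass in either. Ciita had 2.58 ± 0.51 (SE, adjusted p = 0.0044) against WT Cre and 2.76 ± 0.52 (SE, adjusted p = 0.0028) against MCS on the log2 scale. H2-Aa had 2.34 ± 0.38 (SE, adjusted p = 0.0020) and 1.99 ± 0.37 (SE, adjusted p = 0.0034). H2-DMb2 had 0.98 ± 0.30 (SE, adjusted p = 0.030) and 1.84 ± 0.33 (SE, adjusted p = 0.0014), and H2-Ob 0.94 ± 0.30 (SE, adjusted p = 0.034) and 1.28 ± 0.31 (SE, adjusted p = 0.0081). Against WT Cre these last calls were fragile. H2-DMb2 lost its call without WT Cre 1, 2 or 3 (adjusted p = 0.083, 0.058 and 0.11) and without KO 3 or KO 4 (0.060 and 0.076) by the edgeR test. H2-Ob lost its call without WT Cre 1 or 3 (adjusted p = 0.13 and 0.11) and without KO 2 or KO 4 (0.096 and 0.076) by the same test.

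Between the 2 kinds of control, none of the 10 genes passed the test by edgeR and none by DESeq2, with 1 at an unadjusted p under 0.05. Of all genes 0.441% were higher and 0.486% lower in WT Cre. This comparison is also the test of whether the change in KO livers differed by the control used. The gene with the low unadjusted p was H2-DMb2, at 0.86 ± 0.36 (SE, adjusted p = 0.41), higher in 3 of 3 WT Cre controls than in any MCS control. Estimates for the 3 chains and Cd74 were below 0, from -0.44 for H2-Eb1 to -0.29 for Cd74, and SEs of 0.34 to 0.38 leave room for differences of that size.

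**Figure D2:**
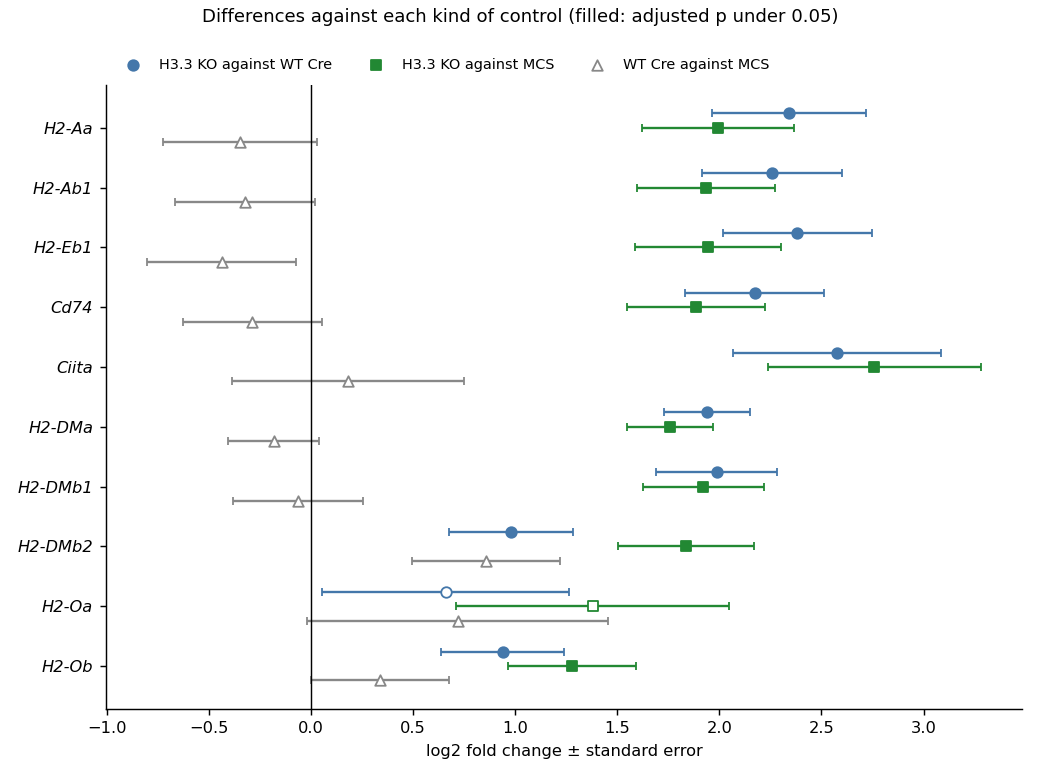
Log2 fold change (horizontal axis) and standard error of each gene against WT Cre, against MCS, and between the controls, with filled symbols for an adjusted p under 0.05. The changes of 9 genes are filled against both controls, and none is filled between the controls.

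Levels of different genes were set side by side as CPM per kilobase of merged exons, a scale that understates genes with long alternative exons. In KO livers Cd74 led with 172 ± 66.5 (SD, n = 4), followed by H2-Eb1 with 56.1 ± 21.9, H2-Ab1 with 53.5 ± 21.4 and H2-Aa with 42.9 ± 17.7. The ranges of these chains over livers overlapped, although H2-Aa was below H2-Ab1 in each of the 10 livers. The order of the chains depended on the scale, since on FPKM H2-Aa was above H2-Ab1 in each of the 10 livers. KO means on FPKM were 212 ± 84.3 for Cd74, 143 ± 60.7 for H2-Aa, 116 ± 48.9 for H2-Ab1 and 90.3 ± 37.9 for H2-Eb1 (SD, n = 4). Per kilobase, H2-DMb1 followed with 5.83 ± 2.14 and H2-DMa with 3.42 ± 0.816, whose ranges overlapped although H2-DMb1 was above H2-DMa in each of the 4 KO livers. On FPKM H2-DMa was instead above H2-DMb1 in each of these livers, with means of 10.9 ± 2.68 and 9.13 ± 3.69. Per kilobase, H2-DMb2 had 0.962 ± 0.324, Ciita 0.814 ± 0.425, H2-Ob 0.451 ± 0.158 and H2-Oa 0.337 ± 0.121, each overlapping its neighbour in this order. In controls Cd74 again led with 42.4 ± 10.1 (SD, n = 6), and H2-Eb1, H2-Ab1 and H2-Aa had 12.7 ± 3.64, 12.6 ± 2.87 and 9.64 ± 2.63. Ciita was last there with 0.128 ± 0.0460, below H2-Oa with 0.167 ± 0.127 and H2-Ob with 0.212 ± 0.0479, again with overlap. On FPKM the control mean of Ciita, 0.276 ± 0.0999, was not below that of H2-Oa, 0.264 ± 0.184.

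Within a liver, the ratios of the abundant members overlapped between groups. On the scale per kilobase, Cd74 to H2-Aa was 4.05 ± 0.237 in KO livers (SD, n = 4) and 4.44 ± 0.252 in controls (SD, n = 6), with overlap. H2-Aa to H2-Ab1 was 0.797 ± 0.0273 and 0.759 ± 0.0368, and H2-Eb1 to H2-Ab1 was 1.05 ± 0.0254 and 0.996 ± 0.0615, both with overlap. The ratios to the less abundant members varied more. H2-DMb1 to H2-Ob was 6.40, 5.71 and 6.72 in WT Cre, 6.17, 7.79 and 11.9 in MCS and 11.7, 12.5, 13.7 and 13.4 in KO livers. MCS 3 alone among the controls reached the KO range. The summed H2-DM genes to the summed H2-DO genes gave 6.42, 9.04 and 4.69 in WT Cre, 7.27, 7.18 and 18.9 in MCS and 11.2, 14.8, 13.8 and 11.9 in KO livers. Here MCS 3 lay above every KO liver, and the other 5 controls lay below all of them. MCS 3 had 15 counts of H2-Ob and 0 of H2-Oa, so both of these ratios rest on few reads there. On FPKM both ratios separated the groups, since MCS 3 too lay below every KO liver. It had 2.53 FPKM for H2-DMb1 and 0.817 for H2-Ob, against 4.18 and 0.967 in KO 1. On the scale per kilobase again, Ciita per 1000 of H2-Aa was 15.4, 16.6 and 16.6 in WT Cre, 11.9, 20.2 and 4.66 in MCS and 12.7, 22.5, 18.1 and 18.7 in KO livers, with no separation. These ratios were not tested.

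**Figure D3:**
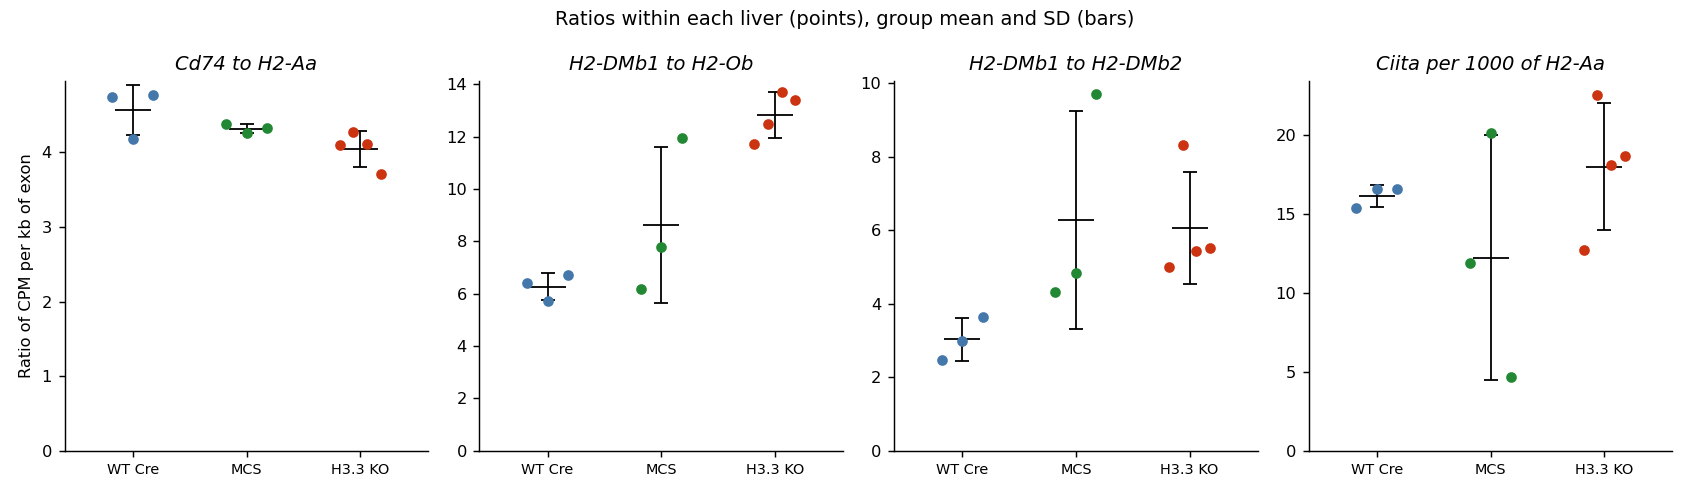
Ratios of levels per kilobase of exon within each liver (vertical axes, from 0), by group, with the group mean and SD. Cd74 to H2-Aa stays near 4 in all groups, while MCS 3 stands above the other controls for H2-DMb1 to H2-Ob and to H2-DMb2 and below them for Ciita to H2-Aa.

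The class II genes share their stretch of chromosome 17 with genes of class I loading. From H2-Oa to H2-Ea-ps, 9 other genes were tested, of which 6 rose and 0 fell, with a median log2 fold change of 0.92. The 6 included H2-Eb2 and CR974462.4, an antisense gene with a mean of 0.0465 CPM. Psmb8 and Psmb9, subunits of the immunoproteasome, rose by 1.40 ± 0.12 and 0.98 ± 0.21 (SE). Tap1 and Tap2, which carry peptides into the endoplasmic reticulum, rose by 0.81 ± 0.19 and 0.51 ± 0.10. These 4 lie between H2-DMb1 and H2-Ob, and their estimates were below those of H2-DMb1, H2-Ab1, H2-Aa and H2-Eb1, while Psmb8 was above H2-Ob, H2-DMb2 and H2-Oa and Psmb9 above H2-Oa. In the 200 kb on either side, 27 genes were tested, of which 6 rose and 4 fell, with a median of 0.13. Against all 6 controls 19.7% of all genes rose and 16.6% fell. The class I heavy chain gene H2-K1 lay in that flank and had -0.36 ± 0.11 (SE, adjusted p = 0.023).

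**Figure D4:**
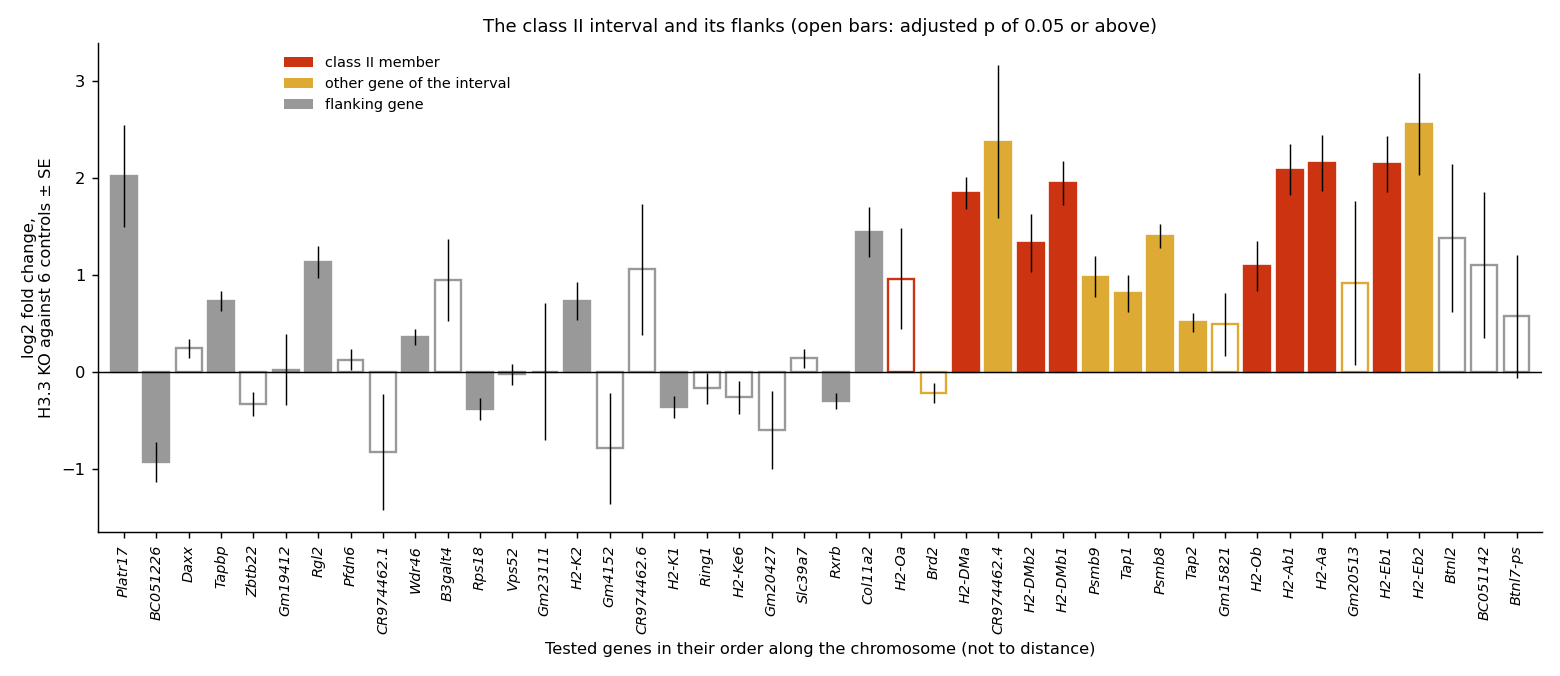
Log2 fold change in H3.3 KO livers against 6 controls (vertical axis, bars with SE) for the tested genes of the class II interval and 200 kb on either side, in chromosome order. The 7 filled member bars reach from 1.09 to 2.16, and the flanking genes lie on both sides of 0.

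Genes that prepare antigen for class II were called in both directions. In the list of antigen processing genes, 7 of 14 tested genes rose and 3 fell (median log2 fold change 0.19), beside -0.0030 for all genes. Over all genes tested, 19.7% rose and 16.6% fell. These shares are to be set beside the counts of this list and of each list that follows. Those with the largest rise were Ctss (2.00 ± 0.24), March1 (1.71 ± 0.32), Ifi30 (1.5 ± 0.16) and Lgmn (1.23 ± 0.14), log2 fold changes with SE. Ctss encodes cathepsin S, which trims the invariant chain, March1 a ligase that removes class II from the surface, Ifi30 a reductase of the endosome and Lgmn a protease. Ctss lay at 62.6 to 162 CPM in KO livers and 23.3 to 42.6 in controls, without overlap. Sppl2a, which removes the last membrane stub of the invariant chain, fell by 0.65 ± 0.12. Lamp1 had -0.43 ± 0.10 and March8 -0.26 ± 0.085, both called lower. With library size alone as the scaling, the list had 1 lower gene. Lamp2, Ctsl and Ctsd did not pass the test, at 0.13, 0.085 and 0.084. Ctsb, Ctsl and Ctsd are known from hepatocytes too.

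Some factors that sit on class II promoters or drive Ciita were called. In that list, 4 of 10 tested genes rose and 1 fell (median log2 fold change 0.23), beside 19.7% and 16.6% of all genes. When library size alone was the scaling, 0 were lower. The subunits of the X-box complex had different calls, with Rfx5 at 0.75 ± 0.20 (called higher), Rfxap at -0.49 ± 0.11 (called lower) and Rfxank at 0.070 ± 0.10 (SE, not called). The Y-box factors Nfya, Nfyb and Nfyc did not pass, with -0.088, 0.048 and 0.30, nor did Creb1 with 0.17. Irf4, Spi1 and Irf8, factors of blood cell lineages, rose by 3.33 ± 0.50, 1.85 ± 0.22 and 1.56 ± 0.25.

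Interferon gamma is the known inducer of Ciita outside the professional cells. Of its list, 11 of 16 tested genes rose and 0 fell (median log2 fold change 0.77). The largest rises were Cxcl10 (2.67 ± 0.42), Gbp5 (2.29 ± 0.39) and Gbp2 (2.23 ± 0.36) and Ifng itself (2.01 ± 0.64), which stayed at or below 0.229 CPM in every liver. The abundant members Iigp1, Irgm1 and Igtp did not pass, with 0.17 ± 0.16, -0.37 ± 0.22 and 0.14 ± 0.35. In the list of MHC class I presentation, 8 of 13 tested genes rose and 2 fell (median log2 fold change 0.51). Over all genes these shares were 19.7% and 16.6%. Its largest rises were Psmb8 (1.40 ± 0.12), Psmb9 (0.98 ± 0.21), Tap1 (0.81 ± 0.19) and Tapbp (0.74 ± 0.10). The light chain B2m had -0.31 ± 0.10 and H2-K1 -0.36 ± 0.11, both called lower. Both of these lower calls were lost without MCS 2 or without KO 3, when the list had 0 of 13 lower, and 1 was left without WT Cre 2, MCS 1 or KO 4. The list also had 0 lower with library size alone as the scaling, with the replicate block and on all 3 FPKM settings. Nlrc5, the class I counterpart of Ciita, had -0.44 ± 0.22 (adjusted p = 0.15).

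Ligands that accompany class II at the contact with T cells rose. In the costimulation list, 6 of 6 tested genes rose and 0 fell (median log2 fold change 1.86), and 2 others (Tnfsf4 and Cd70) were too low to test. Cd40, Cd86 and Cd80 rose by 2.57 ± 0.32, 1.86 ± 0.26 and 1.73 ± 0.30, and the inhibitory ligands Cd274 and Pdcd1lg2 by 1.86 ± 0.35 and 3.39 ± 0.73. Cd86 lay at 5.08 to 9.13 CPM in KO livers and 1.55 to 4.02 in controls. Pdcd1lg2 did not exceed 0.316 CPM in any liver.

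Most markers of dendritic cells and macrophages, which carry class II, were higher in KO livers as well. Among dendritic cell genes, 11 of 14 tested genes rose and 0 fell (median log2 fold change 1.33), led by Itgax (3.11 ± 0.36), Flt3 (2.48 ± 0.33), Ccl22 (2.28 ± 0.36) and Cd207 (1.77 ± 0.29). Zbtb46 and Xcr1, defining genes of conventional dendritic cells, did not pass, with 0.21 ± 0.14 (adjusted p = 0.26) and 0.81 ± 0.35 (adjusted p = 0.088), nor did Mgl2 with -0.45 ± 0.71. The summed level of the list was 32.8 to 70.4 CPM in KO livers and 20.6 to 23.7 in controls. Among Kupffer cell genes, the resident macrophages of liver, 10 of 12 tested genes rose and 0 fell (median log2 fold change 1.56), led by Marco (3.23 ± 0.48), Adgre1 (1.85 ± 0.32), Cd5l (1.74 ± 0.21) and Folr2 (1.61 ± 0.25), and the sum was 656 to 1315 CPM in KO livers and 364 to 559.9 in controls. Slc40a1 and Cd163 did not pass, with -0.13 ± 0.15 and 1.18 ± 0.47. Among genes of monocytes and recruited macrophages, 14 of 14 tested genes rose and 0 fell (median log2 fold change 2.25), led by Gpnmb (4.52 ± 0.49), Chil3 (3.40 ± 0.64), Ly6c2 (2.73 ± 0.43) and Trem2 (2.66 ± 0.32), and the sum was 222 to 482 CPM in KO livers and 97.2 to 164 in controls. In each of these 3 lists no KO sum overlapped a control sum, KO 1 was the lowest KO liver and MCS 3 the highest control, as for the 3 class II chains and Cd74. This order was not particular to these lists. The stellate cell sum had it too, at 601 to 877 CPM in KO livers and 315 to 390 in controls. So did the costimulation sum, at 12.2 to 33.3 and 4.64 to 9.33 CPM. The part of these cells in the class II rise was not tested.

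B cell genes followed another order of livers. Of that list, 5 of 14 tested genes rose and 0 fell (median log2 fold change 0.87). Bank1, Cd22 and Cd79b rose by 1.53 ± 0.22, 1.49 ± 0.36 and 1.35 ± 0.45, while the defining genes Ms4a1, Cd79a and Pax5 did not pass, with 1.17 ± 0.50, 0.93 ± 0.45 and 0.80 ± 0.38. Without KO 2 or KO 4 the list had 3 called genes. The summed level was 13.2, 13.7 and 11.5 CPM in WT Cre, 8.87, 7.90 and 2.74 in MCS and 13.6, 25.1, 20.4 and 23.1 in KO livers. MCS 3 was the lowest liver, and KO 1 lay within the WT Cre controls. MCS 3 was also the lowest control for Ciita, H2-DMb2, H2-Oa and H2-Ob on CPM, 4 of the 10 members, but on FPKM for H2-Oa and H2-Ob alone of these. WT Cre controls exceeded MCS controls both in this sum and in H2-DMb2 CPM. Whether B cells had a part in these members was not tested.

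**Figure D5:**
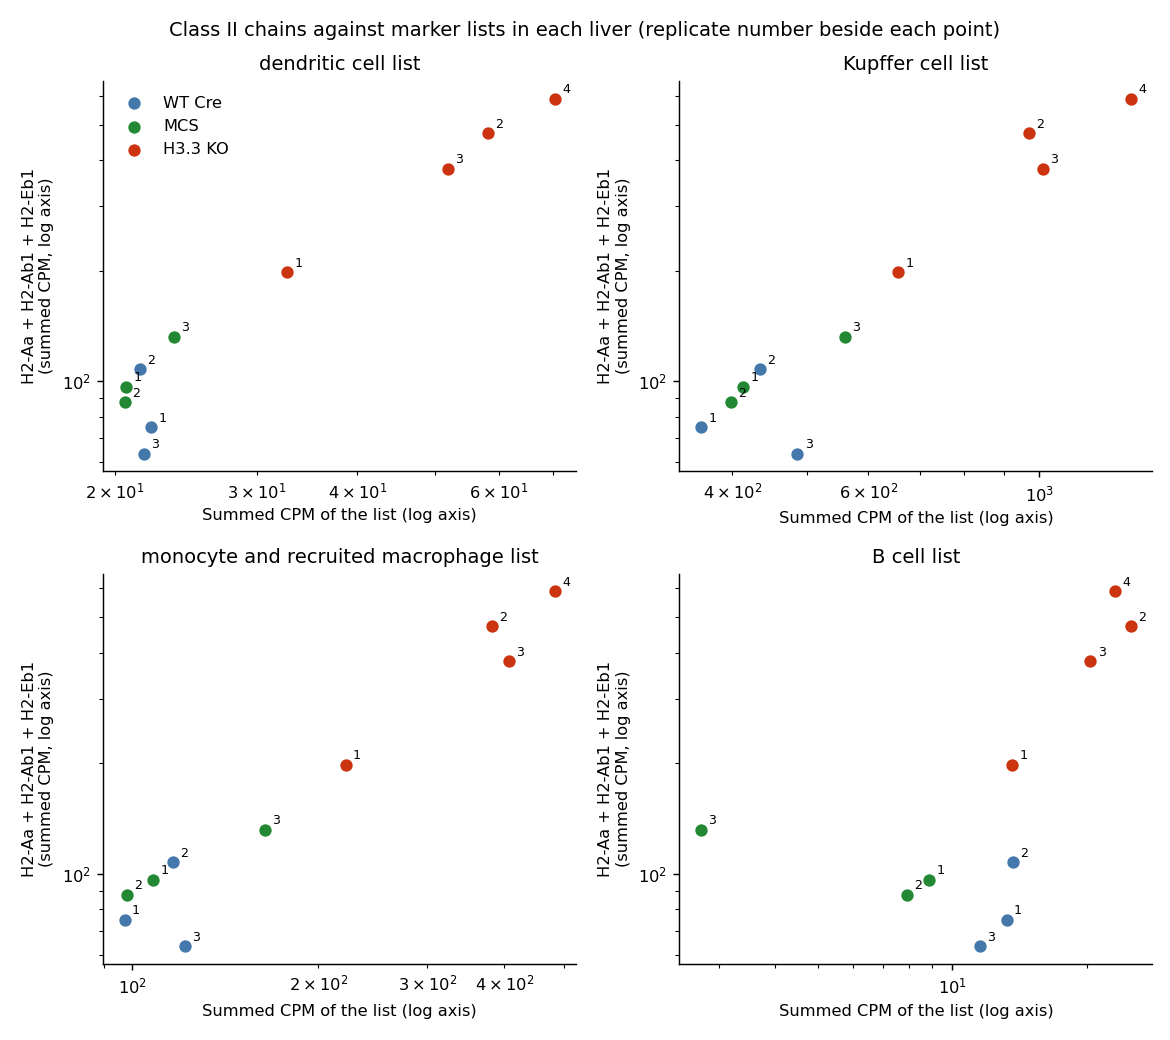
Summed CPM of H2-Aa, H2-Ab1 and H2-Eb1 (vertical, log axis) against the summed CPM of 4 marker lists (horizontal, log axes) in each liver, numbered by replicate. KO livers lie up and to the right for dendritic, Kupffer and monocyte genes, and MCS 3 stands far to the left for B cell genes.

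The chains were also set against cell type lists within a liver. The sum of H2-Aa, H2-Ab1 and H2-Eb1 was 74.9, 108 and 63.4 CPM in WT Cre, 96.4, 87.7 and 132 in MCS and 198, 473, 379 and 588 in KO livers. Divided by the dendritic cell sum it was 6.04 to 8.35 in KO livers and 2.91 to 5.57 in controls, and divided by the Kupffer cell sum 0.302 to 0.487 and 0.130 to 0.248, in both cases without overlap. Divided by the sum of monocyte and recruited macrophage genes it was 0.894 to 1.24 and 0.521 to 0.925, with overlap. Divided by the B cell sum it was 14.5 to 25.5 and 5.51 to 48.2, where the highest value was MCS 3. Divided by the T and NK cell sum it was 14.0 to 26.6 and 12.6 to 21.5, with overlap. Divided by the sinusoidal endothelial sum it was 0.596 to 1.16 and 0.165 to 0.330, without overlap. These are ratios of summed reads, to be compared between livers only, and were not tested.

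Other cell types of liver were checked in the same way, beside 19.7% of all genes that rose and 16.6% that fell. In the T and NK cell list, 12 of 14 tested genes rose and 0 fell (median log2 fold change 1.87), among them Cd4 with 2.32 ± 0.42, the coreceptor for class II. In the plasmacytoid dendritic cell list, 1 of 6 tested genes rose and 0 fell (median log2 fold change 0.81), and the gene called was Spib, which the B cell list also holds. That count was 0 without KO 2 or KO 4 and 2 without WT Cre 2 or KO 1. In the neutrophil list, 4 of 5 tested genes rose and 0 fell (median log2 fold change 1.58), a count that was 2 or lower without any 1 of WT Cre 1, 2 or 3, MCS 1 or 2, or KO 2, 3 or 4, and lowest without KO 2, at 1. In the sinusoidal endothelial list, 1 of 10 tested genes rose and 0 fell (median log2 fold change 0.32), with a count of 6 without KO 1, 2 without MCS 3, and 0 without WT Cre 2, MCS 1, MCS 2, KO 2, KO 3 or KO 4. Its sum was 332 to 577 CPM in KO livers and 321 to 406 in controls. Among stellate cell genes, 8 of 10 tested genes rose and 0 fell (median log2 fold change 0.86), and among cholangiocyte genes, 2 of 8 tested genes rose and 0 fell (median log2 fold change 0.49). Among hepatocyte genes, 0 of 10 tested genes rose and 8 fell (median log2 fold change -0.75), with 5 lower without KO 2 or on the FPKM settings and 4 without KO 3. The hepatocyte sum was 79752 to 93149.9 CPM in KO livers and 106093 to 154244 in controls. The part of these shifts in the class II values was not tested.

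Likeness was measured within groups, so that the difference between the group means played no part. An uneven change among KO livers can still enter. For H2-Aa, KO 1 had 2.11 times the control mean and the other KO livers averaged 5.23 times. Log2 CPM values were centred in each of the 3 groups, and each of 13210 genes with a mean of 1 CPM or more was correlated with the mean of H2-Aa, H2-Ab1, H2-Eb1 and Cd74 over the 10 livers. These 4 genes had r of 0.993 or more with their own mean. H2-DMb1 came next among the members, with r = 0.926 (rank 84 of 13210). Then came H2-Ob with 0.780 (rank 940), H2-DMa with 0.736 (rank 1365), Ciita with 0.669 (rank 2032) and H2-DMb2 with 0.617 (rank 2511). Many genes outside the set thus ranked above these last members. H2-Oa, below the level limit, had -0.324. The 10 other genes with the highest likeness were Sh3kbp1 (0.990), Itgb7 (0.979), Nfkbib (0.974), Cd300lf (0.973), Git2 (0.966), Vav1 (0.966), Il10ra (0.963), Ptpn22 (0.962), AI506816 (0.962) and Mtf2 (0.959). Vav1, Itgb7, Il10ra and Ptpn22 are known from leukocytes. Of the 10, Nfkbib and Mtf2 did not differ between KO and pooled controls at the threshold, with 0.27 ± 0.14 and 0.24 ± 0.13. The points share library and liver, and no test was made of these correlations.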

How the data were processed

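Poly(A) RNA of whole liver was measured in 10 mice. The authors trimmed reads, aligned them to mm10 with STAR and counted reads per gene with HOMER, and the deposited counts are whole numbers without normalization. The labels also name HTSeq and Cufflinks, with no role given. The authors also deposited FPKM values, whose 268042 blank cells were read as 0. Differences were tested with edgeR 4.0.16 (R 4.3.3, TMM scaling, quasi-likelihood F test, robust), on the 22449 genes with 10 or more counts summed over livers. The comparison with pooled controls fitted 2 groups, and the others fitted 3 groups with one shared dispersion. Called means a Benjamini-Hochberg adjusted p under 0.05. CPM used TMM library sizes, and log2 CPM a prior count of 2. Lists were described by counts and medians. Alternatives were DESeq2 1.42.0, other scalings and filters, each liver left out, a replicate block, and limma 3.58.1 on log2 FPKM with pseudocounts of 1 and 0.1.

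The scripts were tested on simulated data. The members and gene lists were chosen with earlier results of these data known. All members were named. From each list, up to 4 called genes with the largest change and up to 3 abundant genes not called were to be named, together with marker genes near 0, the 10 genes of highest likeness, and H3f3a, H3f3b and Hira. Some further genes were named for their role after their values were seen. Replicates differed by more than sampling noise. Intervals for a count of 0 cover counting error only. Promoter windows came from RefSeq. Values of some listed genes are not reported here.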

Additional observations from a re-analysis of the deposited data

Results flagged for a closer look

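Single livers were checked against the rest of their group, with the gap to the nearest liver set against the range of the group (Dixon's 95% limits), in 94 groups of values. Chance picks out about 1 in 20 groups, and 10 stood out. No level of a class II member was among them. MCS 3 stood apart from the other controls in 6 of them. Its summed level was 164 CPM for monocyte and recruited macrophage genes and 13.1 CPM for neutrophil genes, both the highest of the controls. Its ratio of H2-DM to H2-DO genes was 18.9, of H2-DMb1 to H2-DMb2 9.70 and of H2-DMb1 to H2-Ob 11.9, all per kilobase and all the highest of the controls. The ratio of the 3 class II chains to the B cell list was 48.2 there. WT Cre 3 had the lowest ratio of the 3 chains to the Kupffer cell list, 0.130. Among KO livers, KO 2 had a summed level of 4552 CPM for MHC class I presentation and a ratio of H2-DMb1 to H2-DMb2 of 8.31, and KO 1 had 178 CPM for plasmacytoid dendritic cell genes, a sum made up mostly of Bst2.

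Of the members and listed genes, 1 changed by different amounts against the 2 kinds of control. Serpina1a, a hepatocyte gene, had a log2 difference of -0.66 between WT Cre and MCS (edgeR adjusted p = 0.030), with 881, 978 and 751 CPM in WT Cre and 1346, 1374 and 1403 in MCS. It has near-identical copies in the genome, and its value is uncertain for that reason.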

How the results depend on the processing

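Against pooled controls, 9 members rose under DESeq2, DESeq2 size factors, library size alone, both other filters and each left-out liver, and 8 on log2(FPKM + 1) and on log2(FPKM + 0.1), where H2-Ob lost its call. With a mean FPKM of at least 1, 6 rose, fewer genes being tested. H2-Ob was tested there and again lost its call (limma, log2 fold change 0.25, adjusted p = 0.32). The median log2 fold change stayed between 1.82 and 2.21 with a liver left out and was 1.57 on log2(FPKM + 1). Against WT Cre 7 to 9 members rose with a liver left out, and against MCS 9 in each case, while log2(FPKM + 1) gave 8 and 8, and log2(FPKM + 0.1) gave 8 and 9, against WT Cre and MCS. Over all lists, 118 of 176 genes were called, and 99 to 125 with a liver left out. In a fit with the replicate number as a block (9 livers), 9 members rose against pooled controls, 7 against WT Cre and 9 against MCS, with a median of 1.77, and 101 list genes were called. The same 9 livers without the block, a fit chosen after seeing the data, gave 9, 7 and 9. Same-numbered samples correlated by -0.0386 to 0.111 and differently numbered ones by -0.154 to 0.194. These values showed no pairing by number, but with so few livers they cannot exclude one. Between the controls 0 members were called throughout, but signs changed. With a liver left out, Ciita ran from -0.095 to 0.58 and H2-DMb1 from -0.18 to 0.080. Ciita had -0.013 and -0.083 on log2(FPKM + 1) and log2(FPKM + 0.1), -0.095 without WT Cre 2 and -0.090 without MCS 3. H2-DMa had 0.020 (also with the FPKM filter) and 0.032, and H2-DMb1 0.13 (also with the filter), 0.19, 0.079 with library size alone, 0.045 without WT Cre 1 and 0.080 without MCS 3. The cause was not tested. Against MCS, H2-Oa passed on log2(FPKM + 0.1) alone of the alternatives (adjusted p = 0.049), a setting under which H2-Ob lost its call (adjusted p = 0.18). Library size alone moved the median of all genes to 0.17 and that of members to 2.18, and the share of calls that were higher from 54.3% to 72.2%. All genes called numbered 8155, 6383 and 7192 against pooled controls, WT Cre and MCS, and 4876, 3909 and 4775 with a mean FPKM of at least 1. Between the controls they numbered 208, 643 by DESeq2, 315 without a filter, 394 with the block, and 70 without WT Cre 3 to 517 without KO 1. Depth limits H2-Oa, H2-DMb2 and H2-Eb2, which had few counts.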
